A study of Mus musculus with 4 samples.

Results

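The genes described here encode the signalling part of the T cell receptor and its coreceptors: Cd3e, Cd3d, Cd3g and Cd247, the coreceptor chains Cd4, Cd8a and Cd8b1, and the kinase Zap70 with the adaptors Lat and Themis. They were chosen by name. All 10 were found, each with 1 row, among 19504 genes with a symbol. The values come from 1 expression array for each of 4 genotypes of mouse group 3 innate lymphoid cells (ILC3s), which lack a rearranged antigen receptor. The genotypes were circZbtb20+/+, here the circZbtb20 wild type, circZbtb20-/-, a knockout of a circular RNA, Nr4a1+/+, here the Nr4a1 wild type, and Nr4a1-/-, a knockout of a nuclear receptor induced by antigen receptor signals. All were sorted by flow cytometry as lineage-negative, CD90-high and CD45-low. The antibodies of the lineage gate, the tissue, the strain, the age, the number of mice per array and the tissues in which the deletions act were not stated.

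With 1 array per genotype no value has a replicate error, and a log2 difference is given without a test unless limma is named. Calls of higher or lower needed a difference of 2-fold or more, and genes entered the count only if the higher of both values reached its array's median over all rows, the filter on low values. Those medians lay between 4.34 and 4.51, and the highest value of the table was 19.93. It was held by 21 and 3 rows of the circZbtb20 wild type and knockout. In the Nr4a1 wild type and knockout 25 and 18 rows held it. Values at it cannot be ranked against each other. The targeted gene Nr4a1 stood at 19.93 in the circZbtb20 wild type, 15.98 in its knockout and 18.11 in the Nr4a1 wild type. It was at 11.63, its lowest value, in the Nr4a1 knockout. The deleted segment and the probe positions are unknown here, so the remaining signal cannot be interpreted.

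The cell type label was checked before the results. Among genes that passed the filter, 20.8% were lower and 31.9% higher in the array labelled Nr4a1 knockout than in its wild type. Of 13 measured ILC3 marker genes, 11 were lower and 0 higher there. Their median value was 15.06 and 15.05 in the wild types, 16.55 in the circZbtb20 knockout and 5.48 in the Nr4a1 knockout. Kit, Il23r and Ncr1 were at 5.48, 4.73 and 3.0 on that array. Il22, named after its values were seen, was an exception, at the table's highest value there as in both wild types. Its levels on those arrays therefore cannot be compared. The array labelled Nr4a1 knockout therefore goes against its cell type label for most ILC3 markers, and every Nr4a1 result below rests on it.

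A T cell recognises antigen with a pair of variable receptor chains that have almost no cytoplasmic tail. CD3 epsilon, delta and gamma, together with the zeta chain encoded by Cd247, are assembled with them and carry tyrosine motifs called ITAMs. CD4 or CD8 brings the kinase LCK to the complex, which phosphorylates the ITAMs. ZAP70 docks there and phosphorylates LAT, the scaffold for downstream signalling, while THEMIS sets signal strength during selection in the thymus. Some of these proteins also serve innate lymphocytes. The zeta chain pairs with activating receptors of NK cells, ZAP70 and LAT act beneath such receptors, and mouse ILC3s of the lymphoid tissue inducer type can carry CD4. No row named for a receptor variable, joining or constant segment was found, so the receptor chains themselves were not analysed here.

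Promoters are shown for Cd3g, Cd3d and Cd3e, which lie in 1 cluster and were high on the same array, and for Cd247 and Cd8a as examples of chains encoded elsewhere. RefSeq, on build GRCm38.p6, gave a promoter for 8 of the 10 genes. The start sites of Cd3g and Cd3d point away from each other and lie 1355 bases apart, and the start of Cd3e lies 27825 bases beyond that of Cd3d. Each sequence is the 250 bases before the RefSeq start site, 5′ to 3′ on the gene's own strand. Capitals mark matches to an ETS core (GGAAG), a RUNX site (TGTGGT), an E-box (CAGNTG), a TCF/LEF site (CTTTGA) or a GATA site (AGATAA), searched on both strands. No match overlapped another.
Cd3g, chr9:44980432-44980681, minus strand: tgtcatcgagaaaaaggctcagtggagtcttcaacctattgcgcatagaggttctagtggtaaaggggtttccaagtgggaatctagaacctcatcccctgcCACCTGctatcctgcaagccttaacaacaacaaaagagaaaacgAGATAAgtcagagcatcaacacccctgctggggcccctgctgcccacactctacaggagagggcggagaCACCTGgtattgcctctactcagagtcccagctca
Cd3d, chr9:44981536-44981785, plus strand: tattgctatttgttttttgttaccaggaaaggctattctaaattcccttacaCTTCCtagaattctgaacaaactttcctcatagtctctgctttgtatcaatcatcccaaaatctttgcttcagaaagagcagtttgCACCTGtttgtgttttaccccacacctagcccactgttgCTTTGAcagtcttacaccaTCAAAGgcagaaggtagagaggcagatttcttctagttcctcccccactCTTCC
Cd3e, chr9:45009612-45009861, minus strand: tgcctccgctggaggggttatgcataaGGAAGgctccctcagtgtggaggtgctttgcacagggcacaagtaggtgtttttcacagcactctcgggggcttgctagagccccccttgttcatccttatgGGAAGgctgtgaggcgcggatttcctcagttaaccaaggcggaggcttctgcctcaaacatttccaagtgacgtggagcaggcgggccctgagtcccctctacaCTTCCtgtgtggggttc
Cd247, chr1:165788431-165788680, plus strand: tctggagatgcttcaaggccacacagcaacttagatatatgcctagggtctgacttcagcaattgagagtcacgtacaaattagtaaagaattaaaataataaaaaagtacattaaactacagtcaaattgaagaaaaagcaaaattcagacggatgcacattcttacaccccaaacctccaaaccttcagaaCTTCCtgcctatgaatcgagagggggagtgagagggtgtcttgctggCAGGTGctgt
Cd8a, chr6:71373177-71373426, plus strand: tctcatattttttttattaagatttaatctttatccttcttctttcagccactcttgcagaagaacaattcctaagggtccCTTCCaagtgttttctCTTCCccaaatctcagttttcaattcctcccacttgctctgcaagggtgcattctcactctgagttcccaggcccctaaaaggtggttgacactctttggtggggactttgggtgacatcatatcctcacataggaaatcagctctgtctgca

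The cluster's promoters differed in the letters they hold. Cd3e had 3 ETS cores and no other match, at 223, 121 and 17 bases before its start. Cd3d had 2 ETS cores, 1 E-box and 2 TCF/LEF sites, the latter at 73 and 54 bases. Cd3g had no ETS core, but 2 E-boxes, at 148 and 35 bases, and 1 GATA site at 104 bases. Cd247 had 1 ETS core and 1 E-box, and Cd8a had 2 ETS cores. Among 32851 promoter windows of this length, 64.1% held the ETS core, 44.8% the E-box, 14.0% the RUNX site, 13.8% the TCF/LEF site and 9.99% the GATA site. The ETS core and the E-box were each found in 6 of the 8 genes, the TCF/LEF site in 2, and the GATA and RUNX sites in 1 each. Those percentages count windows, and some genes have several. Of the 11 windows of the 8 genes, 7 held the ETS core and 7 the E-box. The TCF/LEF site was in 2 windows, and the GATA and RUNX sites in 1 each. Zap70, whose values behave differently below, has 3 RefSeq start sites, of which 2 had 4 ETS cores each. These matches are a description of the letters only.

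Nearly all of these genes were far higher in the array labelled Nr4a1 knockout than in any other. The exception was Zap70. The other 9 genes stood between 13.36 and 18.92 on that array, all above its 95th percentile of 11.63, and between 3.28 and 10.62 on the other 3 arrays. By the 2-fold rule 9 of 10 were called higher and 0 lower than in the Nr4a1 wild type, with a median difference of 9.70. Among all genes that passed the filter, 31.9% were called higher and 20.8% lower, and the median over all genes was 0.00. All 10 genes passed that filter. In these bulk samples, more cells of a type and more RNA per cell cannot be told apart.

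**Figure D1:**
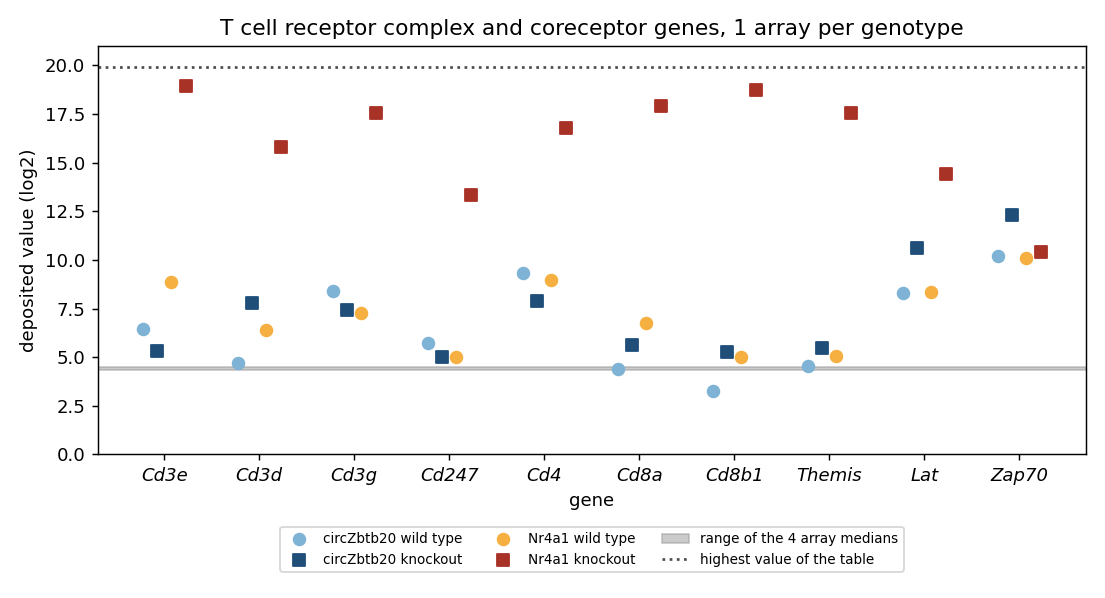
Deposited log2 value (vertical axis) of each of the 10 genes on the 4 arrays, 1 point per array. The grey band is the range of the array medians and the dotted line the highest value of the table, 19.93. The Nr4a1 knockout (red squares) stands highest for 9 genes, and for Zap70 the circZbtb20 knockout stands highest at 12.33.

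The 3 CD3 chains and zeta differed by similar amounts. Cd3e, the chain required for receptor assembly, was at 6.44 and 5.30 in the circZbtb20 wild type and knockout, and at 8.88 and 18.92 in the Nr4a1 wild type and knockout. Cd3g was at 8.40, 7.44, 7.28 and 17.57 in the same order, and Cd3d at 4.72, 7.80, 6.42 and 15.79. Cd247, which encodes zeta, was at 5.73, 5.0, 4.99 and 13.36. For each chain the first 3 values lay well below the fourth, and the gap from the fourth to the next highest array was 10.04 for Cd3e, 9.17 for Cd3g, 7.99 for Cd3d and 7.63 for Cd247. The Nr4a1 differences of the 4 chains ran from 8.37 to 10.29, a narrower range than that of the coreceptors.

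The coreceptor genes were all called higher in the Nr4a1 knockout, but from different wild-type levels. Cd8b1, the beta chain of CD8, was at 3.28, 5.27, 5.0 and 18.73 in the same order of arrays. Its difference of 13.73 was the highest of all 19504 genes in that comparison. Cd8a, the alpha chain, was at 4.41, 5.61, 6.78 and 17.91, a difference of 11.13 and the seventh highest. In the circZbtb20 wild type both CD8 genes lay under the array median, by -0.07 for Cd8a and -1.20 for Cd8b1. Cd4 was at 9.33, 7.90, 8.95 and 16.79. It was thus 4.85 and 4.44 above the median in the wild types, and its Nr4a1 difference of 7.84 ranked 29 of 19504. Both CD4 and CD8 genes were high on the same array, which a bulk measurement cannot assign to the same or to different cells.

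The kinase and the adaptors did not move together. Themis was at 4.56, 5.48, 5.05 and 17.53, so it was near the median on 3 arrays and its Nr4a1 difference of 12.48 ranked 3 of 19504. Lat was at 8.30, 10.62, 8.36 and 14.41, a difference of 6.05 that ranked 79. Zap70 was at 10.18, 12.33, 10.11 and 10.41, and only its second value, that of the circZbtb20 knockout, stood apart. Its Nr4a1 difference was 0.30, which ranked 6726 and did not reach the 2-fold size. Zap70 was already 5.70 and 5.60 above the median in the wild types. So the gene whose product links the ITAMs to LAT was at like values on 3 arrays, while both its docking partners and its substrate were higher on 1 of them.

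Against the circZbtb20 wild type the Nr4a1 knockout gave the same picture, although the knockout array is shared and adds no independent support. The differences there were 12.48 for Cd3e, 11.07 for Cd3d, 9.17 for Cd3g, 7.63 for Cd247, 7.46 for Cd4, 13.50 for Cd8a, 15.45 for Cd8b1, 12.97 for Themis, 6.11 for Lat and 0.23 for Zap70. By the 2-fold rule against both wild types 9 of 10 were called higher and 0 lower. Of the genes that passed the filter against both, the rule called 28.4% higher and 15.7% lower. Cd8a and Cd8b1, at 4.41 and 3.28 in the circZbtb20 wild type, passed there only through the knockout array. They could not have been called lower against it. In limma with both wild types as 1 group of 2, the same 9 genes were called higher, with adjusted p from 0.0117 for Themis to 0.0278 for Cd3e, and Zap70 had 0.662. That fit called 7.24% of all genes higher and 3.85% lower. Its error comes from the pair of wild types, with 1 residual degree of freedom, and it assumes that the lone knockout arrays vary like them.

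Other T cell genes were high on the same array. Of 10 measured T cell markers outside the receptor list, 10 were higher and 0 lower in the Nr4a1 knockout than in its wild type, and the median difference was 8.18. Lef1, which encodes a partner of beta-catenin needed in thymocytes, was at 16.71 against 4.76. Sh2d1a, which encodes the adaptor SAP, was at 14.71 against 4.39, Cd28, the main costimulatory receptor, at 15.60 against 6.21, and Cd2, an adhesion receptor, at 14.14 against 5.30. The summed log2 level of the list was 54.04 and 59.50 in the circZbtb20 and Nr4a1 wild types, 51.10 in the circZbtb20 knockout and 134.25 in the Nr4a1 knockout. On that last array 0 of the 10 markers lay under the median, against 5, 2 and 2 on the others. The 2 under it in the Nr4a1 wild type passed the filter only through the knockout array. The part that T cells in the sample have in the values of the receptor genes was not tested.

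Genes that mark thymocytes were higher as well, while those of mature naive T cells were called at shares near those of the genes that passed the filter. Of 12 measured thymocyte genes, 12 were higher and 0 lower in the Nr4a1 knockout, and their median difference was 6.75. In the Nr4a1 wild type 8 of the 12 lay below the array median. Those 8 passed the filter only through the knockout array and could not have been called lower. The summed level of the 12 was 137.63 on the knockout array and between 56.68 and 58.74 on the other arrays. Dntt, the terminal transferase, was at 14.64 against 2.40, Aqp11 at 17.36 against 4.91, Ly6d at 14.42 against 6.49 and the thymic chemokine receptor gene Ccr9 at 18.84 against 11.16. Of 9 genes of mature naive T cells 3 were higher and 2 lower, and the median difference was -0.25. Of the genes that passed the filter 31.9% were called higher and 20.8% lower, so the naive list gives no result of its own. In that list Dapl1, at 3.89 against 3.81, did not pass the filter. Lef1, which the T cell list also holds, differed most of the naive genes, by 11.95. Il7r, which ILC3s express too, differed by -2.98 and Ccr7, a lymph node homing receptor, by -2.78.

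Markers of other cell types were not called higher on that array. In the Nr4a1 comparison 0 of 11 NK cell and ILC1 genes, 0 of 7 ILC2 genes, 0 of 10 B cell genes, 0 of 11 macrophage and granulocyte genes, 0 of 10 epithelial genes, 0 of 10 pancreas acinar genes and 0 of 3 red cell genes were called higher. Called lower were 8, 6, 3, 6, 10, 10 and 1 of them, in the same order. Among genes that passed the filter 31.9% were called higher and 20.8% lower, and the B cell count of lower genes lies near that share. Genes under the median on both arrays, such as Pax5 at 3.47 against 3.96, could not be called. In the Nr4a1 wild type 5 of the 10 B cell genes lay below the array median. Against the circZbtb20 wild type the epithelial genes lower were 5 of 10, with a median of -0.97 in place of -3.05, and the macrophage and granulocyte genes 3 of 11. The median of the B cell genes lay between 3.96 and 4.52 on the 4 arrays, with single genes above it, such as Ebf1 at 7.85, 9.19, 7.26 and 6.02.

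**Figure D2:**
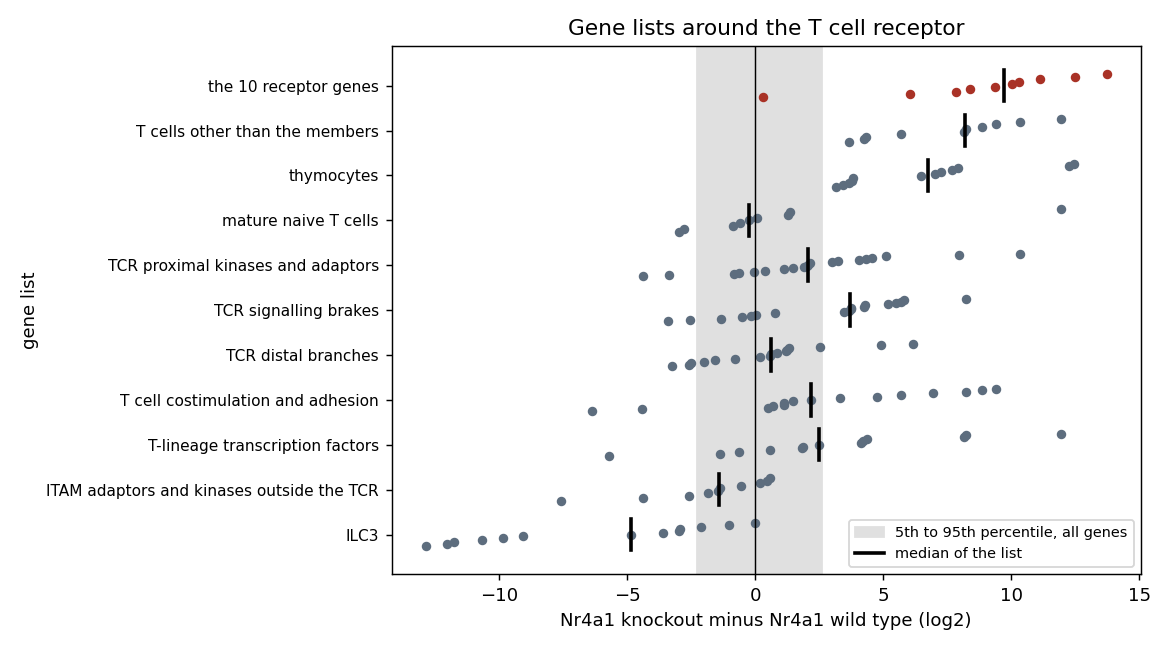
Log2 difference of the Nr4a1 knockout from its wild type (horizontal axis) for every measured gene of each list, 1 point per gene, with list medians as bars. The grey band spans the 5th to 95th percentile of all genes, -2.28 to 2.61. The receptor genes, the other T cell markers and the thymocyte genes lie to the right except Zap70 at 0.30, and 10 of 13 ILC3 markers lie left of the band.

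Most kinases and adaptors close to the receptor were higher. Of 20 measured, 14 were higher and 2 lower in the Nr4a1 knockout, and the median difference was 2.04. Among genes that passed the filter 31.9% were called higher and 20.8% lower. In the Nr4a1 wild type 3 of the 20 lay below the array median and could not have been called lower. Vav1, which activates RAC, was at 12.97 against 7.88, and Sit1, a transmembrane adaptor, at 11.03 against 3.09. Rhoh, a small GTPase that recruits ZAP70, was at 11.51 against 6.95. The 2 lower genes were the adaptor Gab2, at 4.95 against 9.33, and Txk, a kinase gene, at 11.41 against 14.78. This pair was chosen after its values were seen. The gene for LCK was not analysed here.

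Genes that restrain receptor signalling were mostly higher. Of 18 measured, 11 were higher and 3 lower in the Nr4a1 knockout, and the median difference was 3.69. Among genes that passed the filter 31.9% were called higher and 20.8% lower. In the Nr4a1 wild type 4 of the 18 lay below the array median and could not have been called lower. Cd5, an inhibitory receptor whose level follows receptor signal strength, was at 13.27 against 5.04 and Cd6, its relative, at 11.64 against 5.96. Ptpn6, which encodes the phosphatase SHP-1, was at 9.59 against 3.79 and the ubiquitin ligase gene Cbl at 14.63 against 9.14. The 3 lower ones were Ptpn22, Cblb and Ubash3b, at -3.42, -2.55 and -1.34, named after their values were seen. Cd5 and Cd6 also belong to the T cell list, so these counts overlap.

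Further from the receptor, 6 of 16 measured genes of the calcium, PKC and RAS branches were higher and 5 lower, and the median difference was 0.60. These shares lie near the 31.9% and 20.8% of the genes that passed the filter, so the list gives no result of its own. Against the circZbtb20 wild type its median was 1.21. Prkcq, the PKC isoform of the T cell synapse, was at 15.98 against 9.84, and Ppp3cb, a catalytic subunit of calcineurin, at 16.06 against 11.15. Orai1, the pore of the calcium channel, was at 7.0 against 10.24 and Nfatc2 at 6.99 against 9.57. The 13 T-lineage transcription factors, 9 of them higher and 2 lower, had a median difference of 2.49. Myb was at 15.54 against 7.33 and Bcl11b at 14.07 against 5.93, while Runx3, which silences Cd4 in CD8 T cells, was at 8.43 against 14.16. Of 15 costimulation and adhesion genes 11 were higher and 2 lower, and Slamf6 was at 12.25 against 5.31. The 2 lower ones, Ctla4 and Icos, were named after their values were seen. They were at 5.12 against 11.49 and at 13.32 against 17.75.

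Some ITAM adaptors, kinases and related signalling genes that serve other receptors were lower where zeta was higher. Of 10 such genes, 0 were higher, 6 lower and 4 not called in the Nr4a1 knockout, and the median difference was -1.42. Among genes that passed the filter 31.9% were called higher and 20.8% lower. Of the lower genes Lat2, at 3.47 against 4.94, lay close to the array medians. Against the circZbtb20 wild type 4 were lower and the median was -0.66. Blnk and Cd79a, called lower against the Nr4a1 wild type, were not called there, at -0.75 and -0.24. Fcer1g, the gamma chain that can take the place of zeta beneath NKp46, was at 13.63, 10.51, 13.33 and 5.73 in the order of arrays used above. Cd247 was thus at its own highest value on the array where Fcer1g was at its lowest. Fcgr3, which encodes a low-affinity Fc receptor that signals through Fcer1g, was at 6.78 against 11.18. The gene of SYK, the relative of ZAP70, was not called, with Syk at 6.29 against 5.72 (chosen once its values were known).

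The genes beside the receptor genes on the chromosome did not share their difference. With 3 measured neighbours on either side of each of 7 loci, by RefSeq order on GRCm38.p6, 42 flanking genes had a median Nr4a1 difference of 0.02. Of these 5 were called higher and 11 lower. The shares called over all genes, 31.9% and 20.8%, cover only genes that passed the filter. The 42 include genes that did not pass, so these counts cannot be set against those shares. At the Cd3 cluster the flanking genes ran from -2.35 for Jaml to 1.11 for Atp5l, against 9.37 to 10.29 for the CD3 genes. Lag3, directly beside Cd4 and a ligand-binding relative of CD4, was at 4.45 against 4.89. At the Cd8 locus Rmnd5a, next to Cd8a, was at 14.19 against 9.26, and this difference of 4.93 was the highest among the neighbours. Whether its probes read transcripts of the locus was not tested.

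**Figure D3:**
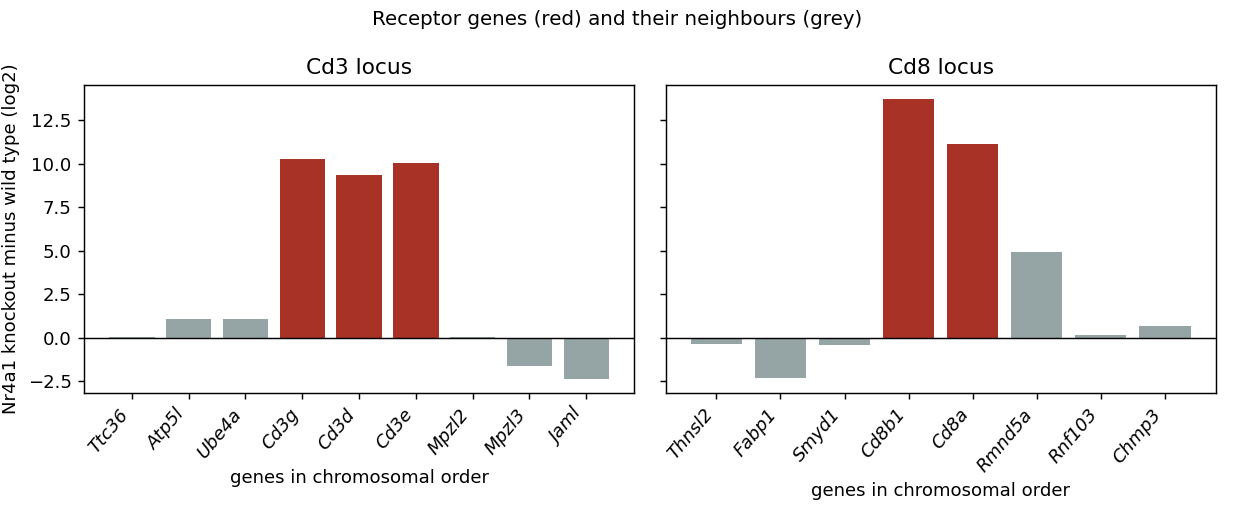
Log2 difference of the Nr4a1 knockout from its wild type (vertical axis) for genes in chromosomal order around the Cd3 and Cd8 loci, as 1 bar per gene. Red bars are receptor genes, at 9.37 or above, and grey bars are 3 measured neighbours on each side, of which Rmnd5a at 4.93 is highest.

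In the circZbtb20 knockout the receptor genes differed by smaller amounts and in both directions. By the 2-fold rule 5 of 10 were called higher and 2 lower than in the circZbtb20 wild type, with a median of 1.06. Of all genes that passed the filter it called 27.3% higher and 19.4% lower, and the median over all genes was 0.04. Against both wild types 3 were called higher, Cd3d, Lat and Zap70, and 2 lower, Cd3e and Cd4. Of the genes that passed the filter against both, the rule called 22.3% higher and 14.4% lower. All 10 genes passed the filter, and Cd8a and Cd8b1 passed only through the knockout array. In the limma fit 0 of 10 were called, as were 0.0% of all genes, with 3 of the 10 and 4681 of all genes at an unadjusted p under 0.05.

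Zap70 and Lat were the steadier of these. Zap70 was at 12.33 in the circZbtb20 knockout against 10.18 and 10.11 in the wild types, differences of 2.15 and 2.22. Lat was at 10.62 against 8.30 and 8.36, differences of 2.32 and 2.26. For both genes the wild types lay within 0.07 of each other, and limma gave adjusted p of 0.0610 and 0.0594. Zap70 was the only one of the 10 genes whose highest value was in this array. Cd4 was lowest in it, at 7.90 against 9.33 and 8.95.

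The CD3 and CD8 genes depended on which wild type served as the reference. For Cd3d the difference was 3.08 from its own wild type and 1.38 from the other. Cd3e differed by -1.14 and -3.58. Cd8a was at 1.20 against its own wild type and at -1.17 against the other, so its direction turned, and Cd8b1 was at 1.99 and 0.27. Cd3g was at -0.96 and 0.16, Cd247 at -0.73 and 0.01 and Themis at 0.92 and 0.43, none called against either. The 3 genes of the Cd3 cluster thus stood in different orders across these 3 arrays, while all 3 were highest in the Nr4a1 knockout.

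The lists of T cell markers were not higher in the circZbtb20 knockout. There the rule called 27.3% of the genes that passed the filter higher and 19.4% lower. Several of the lists below hold genes that did not pass, and those could not be called. Of the 10 other T cell markers 1 was higher and 3 lower, around a median difference of -0.04. Against the Nr4a1 wild type 0 were higher and 5 lower, and the median was -0.97. Of 12 thymocyte genes 0 were higher and 1, Cd24a, was lower. Rag2, Dntt, Arpp21, Endou and Tdrd5 of that list lay below the array medians on both arrays and could not be called. Of 20 kinases and adaptors close to the receptor 8 were higher and 2 lower. Their median difference was 0.55, and -0.14 when the Nr4a1 wild type served as reference. Tespa1, which links the receptor to calcium release, was at 13.74 against 10.07, Vav1 at 9.68 against 6.50 and Txk at 17.17 against 15.16. Of 18 brakes 6 were higher and 1, Ubash3b, was lower, at 7.24 against 9.45. Of the genes that passed the filter, 27.3% were higher and 19.4% lower. Csk, the kinase that inhibits LCK, was at 11.70 against 9.39 and Dgka, a diacylglycerol kinase, at 11.64 against 9.54. Of 16 genes of the distal branches 3 were higher and 6 lower, with Orai1 at 5.72 against 9.98 and Nfatc1 at 8.72 against 10.92. Of the T-lineage transcription factors 3 of 13 were called higher and 6 lower, with Tox at 13.40 against 10.81 and Tcf12 at 10.59 against 13.76.

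Innate partners of these signalling genes were called in both directions on the same array. Of 10 ITAM adaptors, kinases and related signalling genes outside the T cell receptor 2 were higher and 3 lower. Of the genes that passed the filter 27.3% were called higher and 19.4% lower, so this list gives no result of its own. Fcer1g was at 10.51 against 13.63 and Fcgr3 at 14.47 against 11.73. Hcst, which encodes the adaptor DAP10 of NKG2D, was at 8.65 against 7.02. Of 15 costimulation and adhesion genes 4 were higher and 6 lower, and Cd226, an activating receptor of NK and T cells, was at 11.30 against 5.69. Markers of several cell types differed on this array too. Of ILC3 markers 8 of 13 were higher and 4 lower. NK cell and ILC1 genes were lower in 7 of 11 cases with 1 higher, and ILC2 genes in 5 of 7, Il17rb by -9.21 and Il5 by -8.16. Acinar genes were lower in 9 of 10 cases. Of 10 epithelial genes 5 were higher and 1 lower, but 0 and 7 against the Nr4a1 wild type. The part of such cell content in the values of Zap70 and Lat was not tested.

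**Figure D4:**
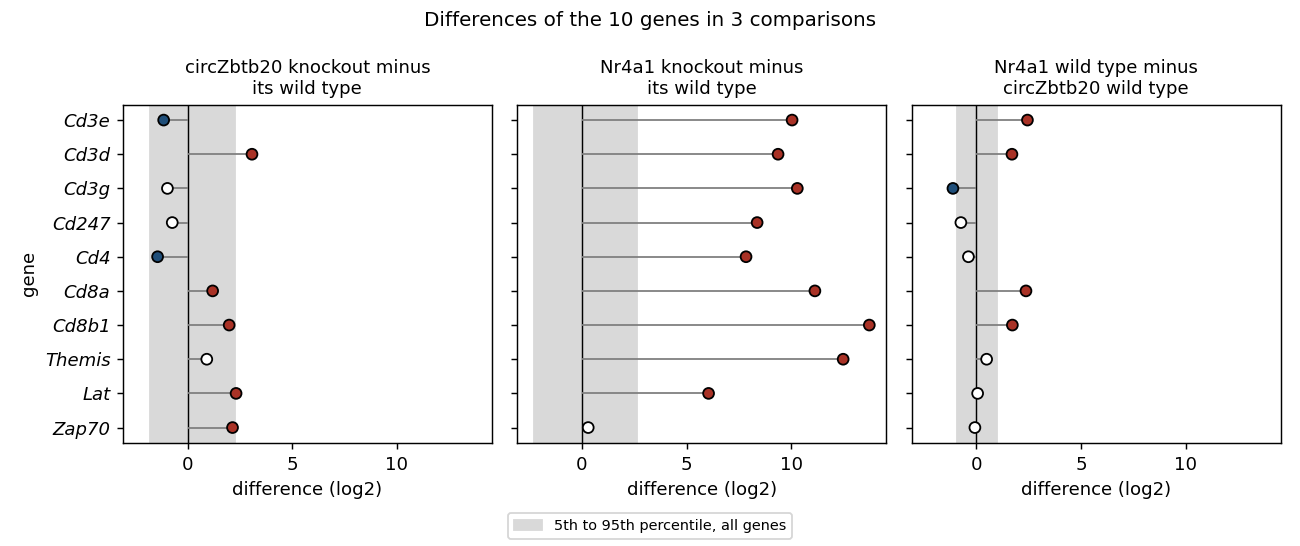
Log2 difference (horizontal axis) of each of the 10 genes in 3 comparisons, 1 point per gene. Red points were called higher and blue points lower by the 2-fold rule, white points were not called, and the grey band spans the 5th to 95th percentile of all genes. In the Nr4a1 panel 9 genes lie at 6.05 or above, and in the other panels no gene exceeds 3.08.

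The wild types, both ILC3s with no deletion, themselves differed for several of these genes. Of the 10, 4 were called higher and 1 lower in the Nr4a1 wild type than in the circZbtb20 wild type, with a median of 0.27. Cd8a and Cd8b1 passed the filter only through the Nr4a1 wild type, where they were 2.27 and 0.49 above the array median. Their calls therefore rest on that array alone. The rule called 8.48% of the genes that passed the filter higher and 6.77% lower, and the median over all genes was 0.03. Cd3e differed by 2.44, Cd8a by 2.37, Cd8b1 by 1.72 and Cd3d by 1.70, while Cd3g differed by -1.12. Cd247, Cd4, Themis, Lat and Zap70 differed by between -0.74 and 0.49 and were not called. Of the 10 other T cell markers 3 were higher and 0 lower, and of 12 thymocyte genes none was called in either direction. In each wild type 8 of those 12 lay below the array median, which limits such calls. Epithelial markers were higher in the Nr4a1 wild type as well, 8 of 10, and acinar markers lower, 9 of 10, and their part in the differences of the receptor genes was not tested.

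Genes with the pattern nearest to that of the receptor list were sought over the 4 arrays. Each gene was centred on its own mean, and the root mean square distance to the median profile of the 10 was taken for 17429 genes. The nearest was Sh2d1a, at 0.41, followed by Il27ra, a cytokine receptor chain, at 0.47 and Bcl11b at 0.48. Cd28 and Cd5 were also among the 10 nearest, at 0.58 and 0.65. The others were the histone genes H2ac15, H2ac10 and H2ac8, the mitotic ubiquitin-conjugating enzyme Ube2c and the cell cycle factor E2f2, at 0.54 to 0.64. Of the list itself Cd3g lay nearest to the profile at 0.63, and Zap70 lay at 4.56, farther than 13946 of the 17429 genes. With 4 arrays, of which 1 stands apart, such a distance mainly measures the difference of that array.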

How the data were processed

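Per the labels' protocols, ILC3s were sorted, RNA was extracted with Trizol and labelled for Affymetrix arrays. The authors deposited log2 values made with Affymetrix Power Tools and RMA, per the submitters' processing notes; versions, genome build and annotation were not stated, and the log2 scale was read from the values. The series' design text names one Affymetrix mouse array protocol, while the row identifiers are those of a different Affymetrix mouse platform, so which probes gave the values is uncertain. Of 22205 rows, 19571 had 1 gene symbol in the probe table, and the row with the highest mean was used per gene. With 1 array per genotype, it is the number of arrays that sets how precise a value is.

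Differences were taken between arrays of the pairs named by title and between the wild types, and calls followed the 2-fold rule over all genes. The fit used limma 3.58.1 in R 4.3.3, with Benjamini-Hochberg adjustment, tested on simulated data. Of each gene list, up to 4 genes with the greatest difference past the rule in a comparison were chosen for naming, and others are marked. Alternatives were other normalizations, filters, sizes, references and row choices. The genes and lists were chosen with earlier results of these data known. Promoter sequences are from RefSeq, where 1668 of 1668 overlapping windows on opposite strands were reverse complements.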

Additional observations from a re-analysis of the deposited data

How the results depend on the processing

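The Nr4a1 counts, 9 higher and 0 lower, held under every normalization, filter, size, reference and row choice tried, and in limma. That knockout is 1 array, so nothing could be recomputed without it. The circZbtb20 counts were less steady. The count of 5 higher became 3 under the 4-fold rule, 3 against the other wild type and 0 in limma. The count of 2 lower became 4 after cyclic loess, 0 under the 4-fold rule and 0 in limma. The median of 1.06 became 0.215 against the other wild type, 0.345 against the mean of both and 0.60 after cyclic loess. Cd8a reversed to -1.17 against the other wild type. Between the wild types the 4 higher became 2 and the 1 lower became 0 under the 4-fold rule. With the filter set 1 above the median the 4 higher became 3. The cause was not tested, except that stricter sizes and filters call fewer genes by construction. Subtracting array medians moved the median of all genes to 0.14 in the circZbtb20 comparison and 0.17 in the Nr4a1 comparison. Each gene had 1 row, so averaging rows changed no value. No detection call was used, so values near the array medians may lie at background.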
